A study of Rattus norvegicus with 6 samples.

Results

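The splicing factor genes of the rat kidney were taken as all genes whose array annotation gave a single symbol starting with Srsf, Sfrs, Hnrnp, Hnrp, Snrp, Sf3a, Sf3b, Prpf or U2af. This gave 61 of the 14218 genes named on the array, made up of 11 SR protein genes (1 of them the pseudogene Srsf7-ps4), 17 hnRNP genes and 33 genes of spliceosome particle proteins. Each gene was represented by its brightest probe set over the 6 arrays. Whole-kidney RNA was compared between 3 samples of male heterozygous Han:SPRD Cy/+ rats and 3 of male wild-type +/+ rats, with 1 array per sample. Cy/+ rats carry 1 copy of a missense mutation in Anks6 and develop slowly progressing cystic kidneys. The sample labels give an age of 10 weeks and the methods one of 5 weeks. Whether the 6 samples are 6 animals is not given in the sources used here, and the p-values speak for the spread among these 6 arrays only, and that spread may be technical.

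Splicing removes introns from pre-mRNA and joins the exons. It is carried out by the spliceosome, in which the U1, U2, U4, U5 and U6 small nuclear ribonucleoproteins (snRNPs) bind the intron in turn. U1 recognises the 5' splice site, U2AF and U2 recognise the 3' end of the intron and its branch point, and the U4/U6.U5 tri-snRNP then joins to build the active site. SR proteins bind exons and mostly favour their inclusion. The hnRNP proteins coat nascent RNA and often favour exon skipping. These proteins are made in nearly every cell type of the kidney, so whole-kidney signals are an average over tubules, vessels and interstitial cells, in which a change in the number of cells of a type and a change in RNA per cell cannot be told apart.

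Splicing factor genes were more often higher than lower in Cy/+ kidneys. Of 58 members that could be tested, 31 were higher and 5 lower, and the other 22 were not called (limma, adjusted p under 0.05 over all 18625 probe sets tested). The higher ones are 53.4% of the tested members, against 37.4% of all 10645 genes tested, and the lower ones are 8.62%, against 29.3% of all genes. The median log2 fold change, Cy/+ over +/+, was 0.34 over the members and 0.09 over all genes. The differences were small in size. A change of at least 2-fold was seen in 3 members (5.17%), Srsf11, Hnrnpa1 and Srsf2, against 22.3% of all genes. The Cy/+ and +/+ arrays did not overlap in 42 of the 58, which is 72.4%, against 74.6% of all genes. In either direction, 62.1% of the members and 66.7% of all genes passed, so that being called was no more common among the members than on the whole array. The 3 members with no tested probe set were Srsf3, Srsf7 and Snrpn, whose probe sets lay below the signal needed for testing (77.8, as the mean over all 6 arrays). All 58 tested members reached that signal in the mean of both genotypes.

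Relative to its own +/+ mean, the median member lay at 0.32, 0.41 and 0.33 log2 units on the 3 Cy/+ arrays, and at 0.017, 0.012 and -0.038 on the 3 +/+ arrays. The shift was therefore present on each Cy/+ array. With each array centred on its median signal, 30 members were higher and 8 lower. Their median log2 fold change was then 0.27, beside a median of 0.021 and shares of 33.5% higher and 33.2% lower over all genes. Of the 31 higher members, 27 passed in the same direction in each fit that left out 1 array, and of the 5 lower ones 3 did.

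**Figure D1:**
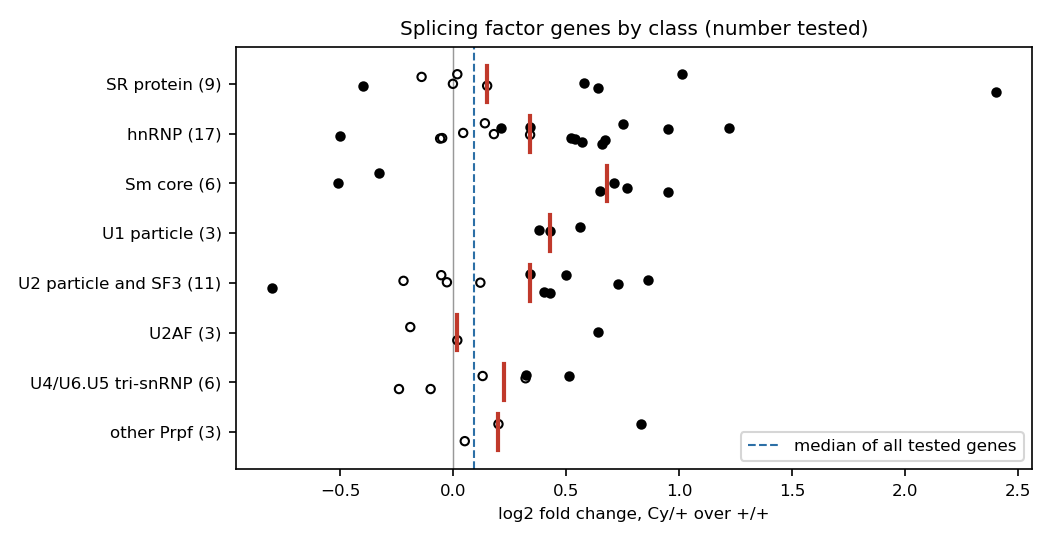
Log2 fold change of each tested splicing factor gene, Cy/+ over +/+, on the x axis, by class on the y axis with the number tested. Filled points passed the threshold, open points did not, red bars are class medians and the dashed line is the median of all tested genes (0.09). Most filled points lie to the right of 0, and the Sm core genes lie on both sides of it, from -0.51 to 0.95.

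Sequence at the starts of the members was taken from RefSeq for the rat assembly GRCr8, as 300 bases around each listed gene start. The table held 61 such windows for 57 of the 61 members. The letters CCGGAAG, the core of the site bound by ETS family factors, were searched on both strands. They were present in 19 of the 61 windows (31.1%), against 8.75% of all 33469 windows. Genes with several starts have a window for each, and Hnrnpf accounts for 3 of the 19. TATAAA, the TATA box, was present on either strand in 7 (11.5%), against 14.2% of all windows. Windows with CCGGAAG belonged to members that were higher, such as Srsf11 and Snrpe, and to members that were lower, Snrpb, Sf3b6 and Hnrnpf. They also belonged to Hnrnpd, Prpf18, Sf3a3, Snrpb2 and Srsf5, which did not pass, and to Srsf7, which was not tested. The base composition of the windows was not taken into account. Those of Srsf11 (chr2:249760209-249760508, minus strand), Snrpe (chr13:47609202-47609501, minus strand), Snrpb (chr3:137832430-137832729, minus strand) and Sf3b6 (chr6:33545245-33545544, plus strand) are shown as 2 higher and 2 lower members that share these letters. Capitals mark CCGGAAG or its reverse complement, and in Snrpe the matches on the 2 strands overlap.
Srsf11: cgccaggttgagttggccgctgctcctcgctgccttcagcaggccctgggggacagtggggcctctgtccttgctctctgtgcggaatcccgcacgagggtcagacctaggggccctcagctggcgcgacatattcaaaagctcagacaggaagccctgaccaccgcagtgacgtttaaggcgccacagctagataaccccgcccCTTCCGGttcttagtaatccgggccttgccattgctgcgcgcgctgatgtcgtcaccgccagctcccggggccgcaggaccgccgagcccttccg
Snrpe: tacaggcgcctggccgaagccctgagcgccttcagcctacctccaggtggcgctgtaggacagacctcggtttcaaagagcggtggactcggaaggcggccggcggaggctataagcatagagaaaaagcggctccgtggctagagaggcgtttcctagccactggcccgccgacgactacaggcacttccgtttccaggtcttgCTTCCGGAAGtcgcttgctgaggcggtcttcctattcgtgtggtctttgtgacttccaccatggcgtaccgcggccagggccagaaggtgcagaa
Snrpb: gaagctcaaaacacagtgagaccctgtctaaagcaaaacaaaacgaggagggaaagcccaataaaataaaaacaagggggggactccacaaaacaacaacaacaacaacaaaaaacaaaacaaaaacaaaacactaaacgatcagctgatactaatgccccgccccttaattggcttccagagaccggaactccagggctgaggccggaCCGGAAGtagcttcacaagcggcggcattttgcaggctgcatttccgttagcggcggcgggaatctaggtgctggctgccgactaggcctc
Sf3b6: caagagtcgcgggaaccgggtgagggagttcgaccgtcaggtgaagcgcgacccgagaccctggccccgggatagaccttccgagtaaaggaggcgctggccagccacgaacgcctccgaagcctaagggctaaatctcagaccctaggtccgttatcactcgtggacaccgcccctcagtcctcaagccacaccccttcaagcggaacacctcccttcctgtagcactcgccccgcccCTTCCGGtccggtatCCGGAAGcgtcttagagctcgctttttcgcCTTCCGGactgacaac
The match is a description of the letters only, and no binding was measured.

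Among 9 tested SR protein genes, 4 were higher (44.4%, close to the 37.4% of all genes) and 1, the pseudogene, was lower, while 4 did not pass. Srsf2 encodes a founding member of the family that acts on exon enhancers. Its signal was 5118, 6145 and 5923 in Cy/+ kidneys, against 2904, 2646 and 2962 in +/+ kidneys. All Cy/+ arrays lay above all +/+ arrays, with a fold change of 2.02 (log2 1.01, standard error 0.10, limma adjusted p = 0.000124). Its second probe set was lower, at -0.49, and the average of both lay at 0.26 (limma adjusted p = 0.0305). Srsf4 and Srsf9 changed less, and each with little spread. For Srsf4 the signal was 1236, 1343 and 1191 in Cy/+ and 790, 828 and 799 in +/+ kidneys, and for Srsf9 it was 1137, 1160 and 1187 in Cy/+ and 766, 806 and 758 in +/+ kidneys. Their log2 fold changes were 0.64 and 0.58 (limma, adjusted p = 0.000395 and 0.000403).

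Srsf11, which encodes an SR-related protein that binds U2AF, had the largest difference of all members by its brightest probe set. Its brightest probe set read 2029, 4595 and 3510 in Cy/+ kidneys, against 620, 566 and 636 in +/+ kidneys. The Cy/+ arrays lay far above the +/+ arrays but were widely spread among themselves, with replicate 1 the lowest and replicate 2 the highest. The log2 fold change was 2.40 (standard error 0.27, limma adjusted p = 0.000259). The second probe set of Srsf11 read 1407, 1008 and 1236 in Cy/+ and 976, 898 and 990 in +/+ kidneys. It did not pass (log2 0.34, limma adjusted p = 0.0508). On the +/+ arrays alone this second probe set was the brighter, so a choice by +/+ signal would have left Srsf11 among the genes that did not pass.

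The brightest probe sets of the other tested SR protein genes did not pass, apart from that of the pseudogene Srsf7-ps4. Srsf1, which encodes the best studied SR protein, read 2333, 2310 and 2204 in Cy/+ and 2357, 2352 and 2149 in +/+ kidneys, with a log2 fold change of -0.0014 (standard error 0.075). The groups overlapped in full. Srsf5 and Srsf6 had log2 fold changes of 0.15 and -0.14 (limma, adjusted p = 0.11 and 0.354). Srsf10, whose protein represses splicing when it loses its phosphates, read 321, 138 and 173 in Cy/+ and 181, 212 and 193 in +/+ kidneys. Cy/+ replicate 1 lay above all +/+ arrays and the other Cy/+ arrays lay below them, so that its log2 fold change of 0.018 became -0.33 without that array, and its second probe set was lower, at -0.76. Srsf6 had further probe sets at -0.04 and -0.43, of which the dimmer one was lower (limma adjusted p = 0.0268). Srsf7-ps4, a pseudogene of Srsf7, was lower at a log2 fold change of -0.40 (limma adjusted p = 0.0321) and did not pass without +/+ replicate 1 or 2 or without Cy/+ replicate 2 or 3. A probe set for a pseudogene can share sequence with its parent gene, so this value cannot be given to either with certainty. The brighter probe set annotated to both Srsf3 and a second locus, which is not in the counts, read 2011, 2601 and 2234 in Cy/+ and 1986, 1999 and 1875 in +/+ kidneys and did not pass (log2 0.22, limma adjusted p = 0.107). A second such probe set read 492, 490 and 464 in Cy/+ and 363, 375 and 389 in +/+ kidneys and was higher (log2 0.36, limma adjusted p = 0.00585).

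Of the 17 hnRNP genes, 10 were higher (58.8%), 1 was lower (5.88%) and 6 did not pass, with a median log2 fold change of 0.34. Hnrnpa1, whose protein is an abundant repressor of exon inclusion and competes with SR proteins, led the class. Its signal was 1056, 1591 and 1404 in Cy/+ kidneys, against 616, 589 and 519 in +/+ kidneys. No Cy/+ array overlapped the +/+ arrays, and the log2 fold change was 1.22 (standard error 0.16, limma adjusted p = 0.000482). The further probe sets of Hnrnpa1 were higher too, at 0.71 and 0.96. Hnrnpul1, which encodes a relative of hnRNP U, followed at 0.95, and Hnrnpu, whose protein binds chromatin-associated RNA, at 0.75. Hnrnpu read 4962, 4940 and 4572 in Cy/+ and 3051, 2957 and 2620 in +/+ kidneys, with no overlap. Of its further probe sets, 1 was higher, at 0.78, and 1 overlapped between genotypes and did not pass, at 0.15 (limma adjusted p = 0.33). Hnrnph1, which encodes a protein that binds G-rich runs, rose by 0.67 and Hnrnpa0 by 0.66 on the log2 scale. Hnrnpdl, Hnrnph3, Hnrnpa3, Hnrnpab and Hnrnpl were higher by 0.57, 0.54, 0.52, 0.34 and 0.21. Of these, Hnrnpl lost its call when any 1 of the +/+ arrays was left out and with arrays centred on the median. Hnrnpdl lost its call without +/+ replicate 2 or Cy/+ replicate 3 and by the methods' t-test, and Hnrnph3 without +/+ replicate 1. The further tested probe sets of Hnrnpdl and Hnrnph3 were higher, at 1.19 and 0.86 (limma, adjusted p = 0.00434 and 0.000211). Hnrnpa3 lost its call with its probe sets averaged (0.13, limma adjusted p = 0.18).

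Hnrnpf was the lower member of the class. It encodes a close relative of hnRNP H1 that also binds G-rich runs. Its signal was 1238, 1337 and 1185 in Cy/+ kidneys, against 1846, 1857 and 1624 in +/+ kidneys, a log2 fold change of -0.50 with a standard error of 0.09 (limma, adjusted p = 0.00214). The F and H1 genes thus lay apart from their +/+ arrays on opposite sides, and the difference between them was not tested. Hnrnpc, which encodes a protein that binds uridine runs and packages pre-mRNA, read 3906, 2480 and 2505 in Cy/+ and 2955, 3155 and 2880 in +/+ kidneys. Cy/+ replicate 1 was above and the other Cy/+ arrays below all +/+ arrays. Hnrnpa2b1, whose protein binds RNA for transport and splicing, had a log2 fold change of 0.044 by its brightest probe set and did not pass (limma adjusted p = 0.777). Hnrnpll, Hnrnpm and Hnrnpr did not pass either, at -0.058, 0.18 and 0.14. The brighter of the probe sets given jointly to Hnrnpk and a pseudogene read 5110, 5238 and 4960 in Cy/+ and 4207, 3961 and 3691 in +/+ kidneys (log2 0.37, limma adjusted p = 0.00424), and the other read 3942, 4083 and 4125 in Cy/+ and 3928, 3817 and 3622 in +/+ kidneys and did not pass (log2 0.10, limma adjusted p = 0.25). Both stand outside the counts.

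**Figure D2:**
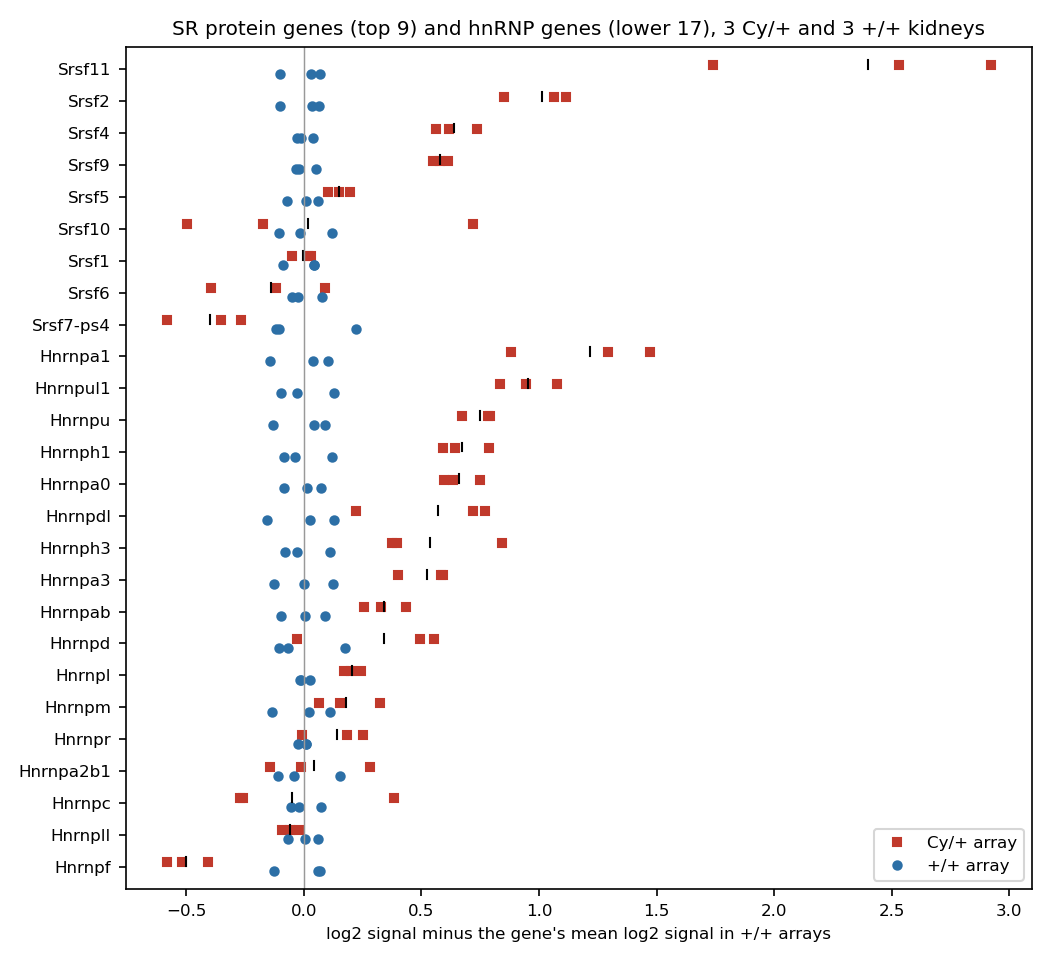
Log2 signal of each array minus the gene's mean log2 signal in +/+ arrays, on the x axis, for the 9 SR protein genes and 17 hnRNP genes tested. Red squares are Cy/+ arrays, blue circles are +/+ arrays and black ticks are Cy/+ means. Srsf11 lies farthest to the right with widely spread Cy/+ arrays, and Srsf10 and Hnrnpc each have 1 Cy/+ array on the opposite side of the others.

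Genes of the spliceosome particles were higher in 17 of 32 cases (53.1%), lower in 3 (9.38%) and did not pass in 12, and their median log2 fold change was 0.33. Genes of the Sm core lay on both sides of 0. Sm proteins form the ring that sits on the U1, U2, U4 and U5 snRNAs, and they enter it as the D1-D2, E-F-G and B-D3 subcomplexes. The 4 higher Sm genes were Snrpd1, Snrpd2, Snrpe and Snrpf. Snrpf read 2179, 2264 and 1843 in Cy/+ kidneys, against 1063, 1156 and 1023 in +/+ kidneys, a log2 fold change of 0.95 with a standard error of 0.10 (limma, adjusted p = 0.000214). Snrpe read 5112, 5568 and 4697 in Cy/+ and 3021, 3288 and 3072 in +/+ kidneys, at a log2 fold change of 0.71. For Snrpd2 the signal was 3108, 3490 and 3171 in Cy/+ and 2086, 2103 and 2050 in +/+ kidneys, at 0.65, and Snrpd1 lay at 0.77. In all 4 genes the Cy/+ arrays were above every +/+ array. A probe set given jointly to Snrpg and its copies, which is not in the counts, read 3723, 3745 and 3429 in Cy/+ and 1949, 1991 and 2034 in +/+ kidneys (log2 0.87, limma adjusted p = 7.86e-05).

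The genes of the B-D3 subcomplex lay on the other side. Snrpb read 1978, 1676 and 1578 in Cy/+ kidneys, against 2498, 2498 and 2420 in +/+ kidneys, a log2 fold change of -0.51 with a standard error of 0.10 (limma, adjusted p = 0.00303). Snrpd3 read 1156, 919 and 1025 in Cy/+ and 1277, 1391 and 1216 in +/+ kidneys, a log2 fold change of -0.33 (limma adjusted p = 0.0287). The call of Snrpd3 was lost without +/+ replicate 1 or 2 or without Cy/+ replicate 2 or 3, and its direction was the same in each. Snrpn encodes a close relative of the B protein. Its own probe set was dim, at 24.1 to 27.7 in Cy/+ and 28.5 to 29.3 in +/+ kidneys, and the probe sets given jointly to Snurf and Snrpn, which share a transcript, were lower, at log2 fold changes of -0.37 and -0.83 (limma, adjusted p = 0.00716 and 0.00204). No test was made of the difference between Sm genes.

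The U1 and U2 genes were mostly higher. Snrpa, the gene of the A protein of U1, and Prpf39 and Prpf40b, relatives of yeast U1 proteins, were all higher, at log2 fold changes of 0.43, 0.38 and 0.56. The probe set given jointly to Snrpc, which encodes the C protein of U1, and a pseudogene did not pass (log2 -0.074, limma adjusted p = 0.478). Among 11 genes of U2 and its SF3 subunits, 6 were higher, 1 was lower and 4 did not pass. Over all genes tested, 37.4% were higher and 29.3% lower, and the classes here are small. SF3b clamps the branch point region of the intron. Sf3b1, its largest subunit and the one that holds the branch site, read 3346, 4142 and 4513 in Cy/+ kidneys, against 2544, 2270 and 2376 in +/+ kidneys, a log2 fold change of 0.73 with a standard error of 0.12 (limma, adjusted p = 0.00148). Its other probe sets overlapped between genotypes and did not pass, at 0.13 and 0.22 (limma, adjusted p = 0.232 and 0.429). Sf3b3, the scaffold that holds Sf3b1, read 1633, 1525 and 1531 in Cy/+ and 838, 882 and 858 in +/+ kidneys, at 0.86 (limma adjusted p = 8.47e-05). Sf3b2 rose by 0.40 and Snrpa1, the gene of the A' protein of U2, by 0.50 on the log2 scale.

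The small SF3b subunits did not share this direction. Sf3b6, whose protein contacts the branch point adenosine, read 1559, 1177 and 1368 in Cy/+ kidneys, against 2353, 2450 and 2278 in +/+ kidneys. Its log2 fold change was -0.80 (standard error 0.11, limma adjusted p = 0.000693), the lowest of all members. Sf3b5 had a log2 fold change of -0.22 (limma adjusted p = 0.0522), and it was lower past the threshold with arrays centred on the median. Sf3b4 lay at -0.053 with overlapping arrays. In the SF3a subunit, Sf3a1 and Sf3a2 were higher, at 0.34 and 0.43, and Sf3a3 did not pass, at -0.028. Snrpb2, which encodes a U2 protein, lay at 0.12 (limma adjusted p = 0.227). Sf3a1 lost its call with quantile normalization and without +/+ replicate 1 or 2.

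U2AF is a dimer that reads the 3' splice site, with a small subunit for the terminal AG and a large one for the polypyrimidine tract. U2af1, the gene of the small subunit, read 1366, 1455 and 1235 in Cy/+ kidneys, against 897, 876 and 828 in +/+ kidneys (log2 0.64, standard error 0.089, limma adjusted p = 0.000668). U2af2, the gene of the large subunit, read 2178, 1945 and 2008 in Cy/+ and 2005, 2047 and 1995 in +/+ kidneys, at a log2 fold change of 0.018 with overlapping arrays. The further probe sets of U2af2 were lower, at -0.34 and -1.19, and the probe set at -1.19 had a Cy/+ mean signal of 52.4, below that needed for testing. With its probe sets averaged, U2af2 passed as lower, at -0.51 (limma adjusted p = 0.0016). U2af1l4, a relative of the small subunit, lay at -0.19 (limma adjusted p = 0.0968) and passed as lower with quantile normalization and with arrays centred on the median.

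In the tri-snRNP, Prpf6 and Prpf3 were higher by their brightest probe sets, at log2 fold changes of 0.51 and 0.32. Averaged with its second probe set (-0.93), Prpf3 turned to -0.30 and passed as lower (limma adjusted p = 0.0262). That second probe set was tested only because of its +/+ signal, with a Cy/+ mean signal of 57.6. Prpf6 bridges U5 with U4/U6, and it read 1057, 1125 and 962 in Cy/+ and 793, 729 and 681 in +/+ kidneys. Prpf8, whose protein cradles the catalytic RNA, read 2035, 1625 and 1746 in Cy/+ and 2204, 2153 and 2016 in +/+ kidneys. The groups overlapped by 1 array, and the log2 fold change of -0.24 did not pass (limma adjusted p = 0.0673). Without Cy/+ replicate 1 it was -0.33 and passed (limma adjusted p = 0.00736). Prpf4, Prpf38a and Prpf38b did not pass by their brightest probe sets, at -0.10, 0.32 and 0.13. Of the further probe sets of Prpf38b, the dimmer was lower, at -0.82 (limma adjusted p = 0.00121), and the other did not pass, at 0.40. Prpf19, the ubiquitin ligase of the complex that activates the spliceosome, read 984, 961 and 995 in Cy/+ kidneys, against 573, 528 and 553 in +/+ kidneys, a log2 fold change of 0.83 with a standard error of 0.075 (limma, adjusted p = 0.000109). The kinase gene Prpf4b (0.20, limma adjusted p = 0.0789) and Prpf18, which acts in the second step of splicing (0.051, limma adjusted p = 0.652), did not pass. Of the further tested probe sets of Prpf4b, the dimmer was lower, at -0.70 (limma adjusted p = 0.00187), and the other did not pass, at 0.34.

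**Figure D3:**
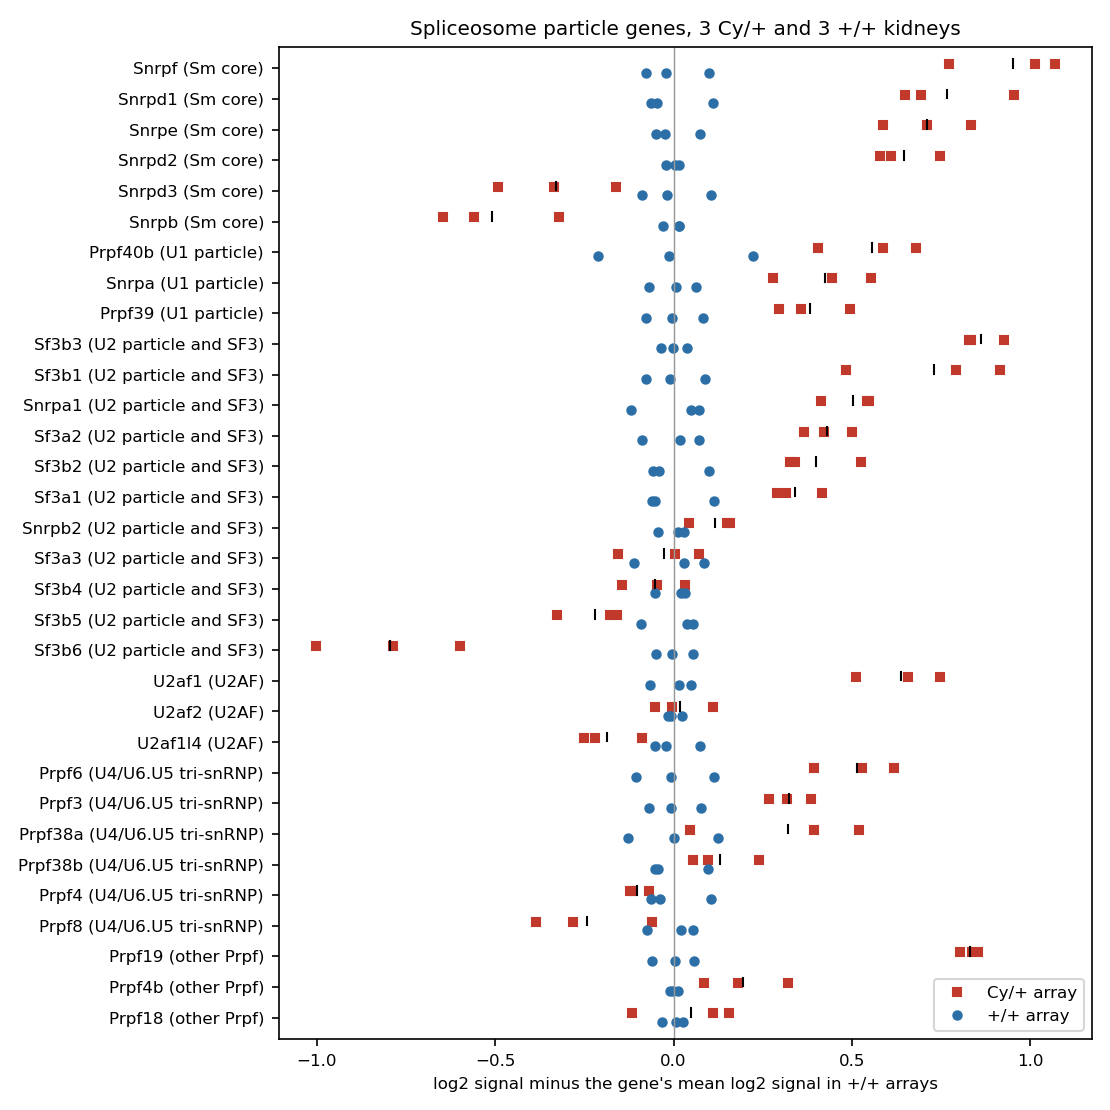
Log2 signal of each array minus the gene's mean log2 signal in +/+ arrays, on the x axis, for the 32 spliceosome particle genes tested, ordered by particle. Red squares are Cy/+ arrays, blue circles are +/+ arrays and black ticks are Cy/+ means. Snrpb and Snrpd3 lie left of the other 4 Sm genes, and Sf3b6 lies left of the other SF3b genes.

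Several members had more than 1 probe set, and these did not always give the same answer. In all, 100 probe sets represent the 61 members, and 89 of them were tested. For 19 members with 2 or more tested probe sets, the brightest was higher in 12 and lower in none, with a median log2 fold change of 0.40. Of their 31 further probe sets, 9 were higher (29%) and 10 lower (32.3%), beside 35.8% and 31.3% of all probe sets tested, and their median was 0.13. Over the whole array, the brightest probe sets of 2818 such genes had a median log2 fold change of 0.14 and their 3713 further probe sets one of -0.21, with 24.3% of them higher and 44.8% lower. In 3 of the 19 members (15.8%, against 16.3% of all such genes) probe sets passed in opposite directions. The second probe set of Srsf2 read 514, 540 and 577 in Cy/+ kidneys, against 812, 721 and 757 in +/+ kidneys, at a log2 fold change of -0.49 beside 1.01 for the brightest. Of the 5 probe sets of Hnrnpa3, 3 were higher (0.52, 0.53 and 0.38), 1 did not pass (-0.05) and the dimmest was lower (-0.72). Prpf3 had a second probe set at -0.93, with a Cy/+ mean signal of 57.6, below that needed for testing. A single direction can therefore not be given for these 3 genes over all their probe sets, nor for Hnrnpa2b1, whose second probe set read 620, 731 and 783 in Cy/+ and 1479, 1384 and 1349 in +/+ kidneys (-0.99) while its others did not pass. Prpf38b, Prpf4b, Srsf6, Srsf10 and U2af2 likewise had lower further probe sets beside a brightest one that did not pass. The Prpf3 probe set at -0.93 and the U2af2 one at -1.19 were tested only because of their +/+ signal. Both are among the 10 lower ones. With probe sets averaged per gene in place of the brightest, 29 members were higher and 9 lower, and Hnrnpa3 did not pass. Those newly lower were Prpf3 (-0.30, limma adjusted p = 0.0262), Hnrnpa2b1 (-0.25, limma adjusted p = 0.0305), U2af2 and Sf3b5. The averages of Prpf3 and U2af2 include their probe sets tested only because of +/+ signal. Sf3b5 has 1 probe set, so its value stayed at -0.22 and only its limma adjusted p moved, from 0.0522 to 0.0497. The position of a probe set in its transcript and the isoform it reads were not analysed here.

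**Figure D4:**
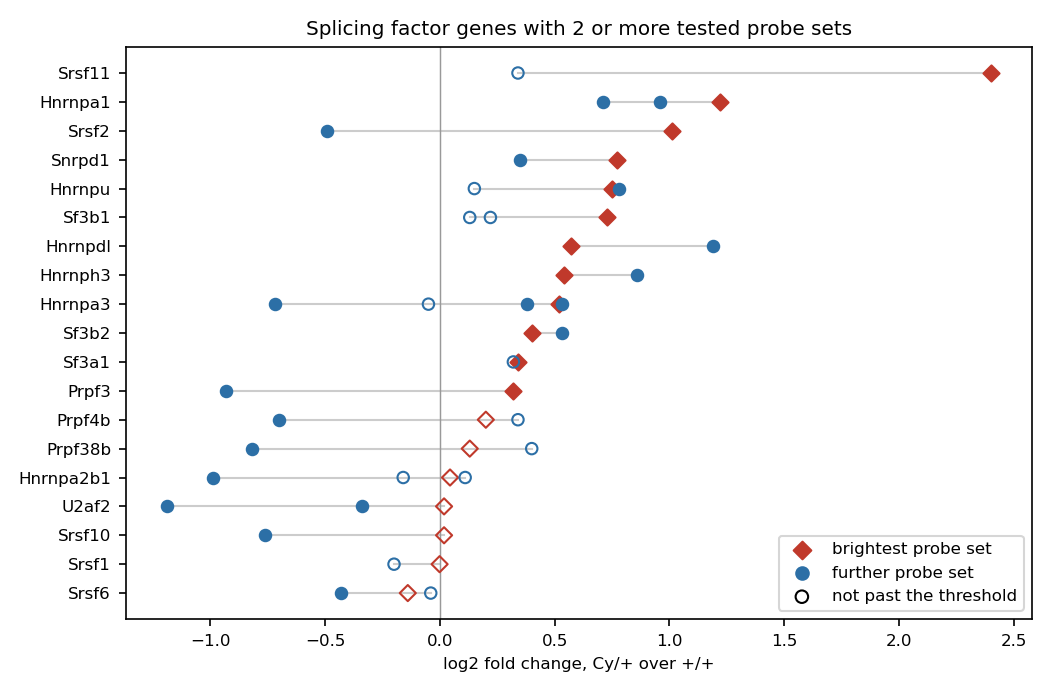
Log2 fold change of each tested probe set, Cy/+ over +/+, on the x axis, for the 19 splicing factor genes with 2 or more. Red diamonds are the brightest probe set of the gene, blue circles are further ones, and open symbols did not pass the threshold. Srsf2, Hnrnpa3 and Prpf3 have filled symbols on both sides of 0.

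The Cy/+ arrays spread more than the +/+ arrays in 41 of the 58 members, with a median SD of log2 signal of 0.115 in Cy/+ and 0.0817 in +/+ kidneys. Over all probe sets other than controls, correlations between arrays were 0.982 to 0.9903 within Cy/+ and 0.9965 to 0.9973 within +/+. The wider spread was thus seen across the array. The counts of spread in this paragraph were not made over all genes and are not read as a trait of the members. Cy/+ replicate 1 was the farthest from the other Cy/+ arrays in 27 members. It was the lowest of the Cy/+ arrays for Srsf11, Hnrnpa1, Hnrnpd and Hnrnpdl, and the highest for Hnrnpc, Srsf10 and Hnrnph3. Hnrnpd, which encodes the AU-rich element binding protein AUF1, read 653, 979 and 938 in Cy/+ and 752, 619 and 635 in +/+ kidneys. It did not pass with all arrays (log2 0.34, limma adjusted p = 0.111) and was higher without Cy/+ replicate 1 (0.52, limma adjusted p = 0.00354). Without that array 34 members were higher and 8 lower. The 3 added to the lower ones were Hnrnpc, Prpf8 and Sf3b5.

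Other genes of the splicing machinery, outside the member families, were listed by role. Of 125 tested, 68 passed as higher (54.4%, against 37.4% of all genes) and 13 as lower (10.4%, against 29.3%), and the median was 0.32 on the log2 scale. Of the 68, 2 (Tia1 and Rbm20) were tested only because of their Cy/+ signal, and both enter the median. The kinases and coactivators of SR proteins had 11 higher (68.8%) and 1 lower of 16. Srpk1, which encodes a kinase that loads SR proteins for import into the nucleus, read 413, 498 and 458 in Cy/+ kidneys, against 212, 198 and 175 in +/+ kidneys (log2 1.23, limma adjusted p = 0.000118). Srrm2 and Son, whose large proteins scaffold nuclear speckles, were higher at 1.31 and 1.24, and Clk2, which encodes a nuclear kinase of SR proteins, was lower at -0.79. Of 11 helicases, 6 were higher (54.5%) and 1 was lower. Ddx39b, whose protein helps U2 to bind, read 2888, 3075 and 2874 in Cy/+ and 1040, 1181 and 1158 in +/+ kidneys (log2 1.39, limma adjusted p = 2.93e-05). Of 4 exon junction complex genes none was higher and Casc3 was lower, at -0.65. In the assembly of snRNPs, 5 of 13 were higher (38.5%, close to the share of all genes) and Gemin6, which encodes a subunit of the SMN complex, was lower at -1.92. The Prp19 complex and step factors had 7 higher (41.2%) and 3 lower of 17, with a median of 0.08 and Cwc27, which encodes a cyclophilin of the spliceosome, lowest at -1.48. The Lsm genes had 4 higher and 1 lower of 8, and the other genes of the tri-snRNP, U2 and the minor spliceosome 11 higher and 4 lower of 21. The named genes of these lists outside the splicing regulators were chosen after their values were seen.

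Regulators of alternative splicing outside the member families had 24 higher (68.6%), 1 lower and 10 that did not pass of 35 tested, and 2 of the higher ones, Tia1 and Rbm20, reached the signal needed for testing only through the Cy/+ arrays. Khsrp, whose protein binds AU-rich and intronic enhancer elements, read 4574, 6887 and 5158 in Cy/+ kidneys, against 1657, 1630 and 1672 in +/+ kidneys (log2 1.72, standard error 0.15, limma adjusted p = 8.4e-05). Esrp1, which encodes an epithelial splicing regulator, read 260, 720 and 518 in Cy/+ and 143, 165 and 179 in +/+ kidneys (log2 1.51, standard error 0.34, limma adjusted p = 0.00636). The Cy/+ arrays of Esrp1 lay above the +/+ arrays and differed widely among themselves, with replicate 1 the lowest. Rbm5 was higher at 1.31. Tia1 and Rbm20 were higher as well. Their mean signals in +/+ kidneys, 49.7 and 57, lay below the limit for testing, and no fold is given for them in the text.

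**Figure D5:**
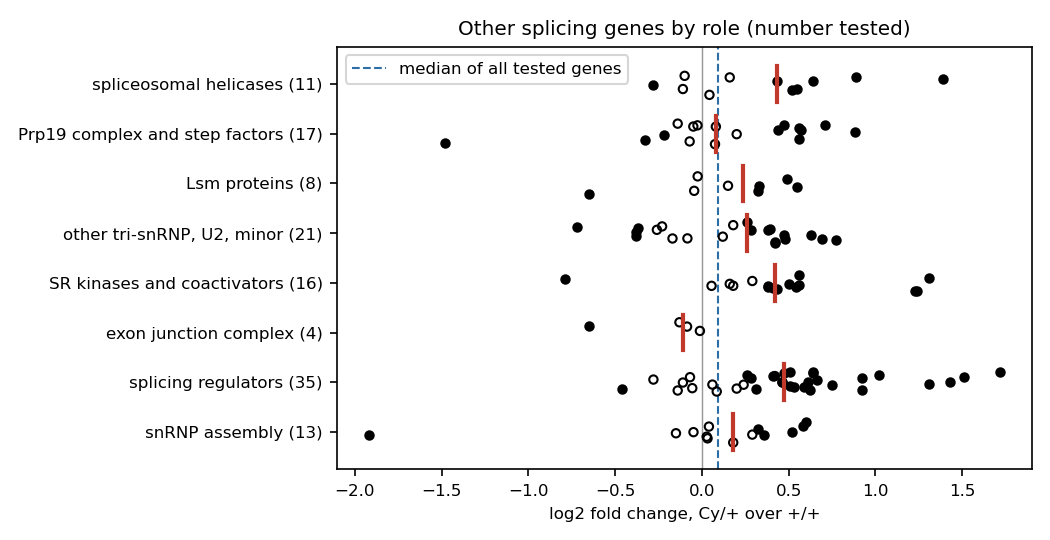
Other splicing genes in 8 lists on the y axis, each gene at its log2 fold change (Cy/+ over +/+) on the x axis, with the number tested per list. Filled points passed the threshold, open points did not, red bars are list medians and the dashed line is the median of all tested genes (0.09). The splicing regulators have a median of 0.47 and the exon junction complex genes one of -0.11. Tia1 and Rbm20, tested only because of their Cy/+ signal, are drawn among the splicing regulators and enter the median of 0.47.

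The same arrays differed in cell type markers and in controls. All 10 markers of the proximal tubule were lower, with a summed signal of 9298 to 22530 in Cy/+ and 84096 to 89668 in +/+ kidneys, and the dimmest had a mean of 183 in Cy/+ kidneys. All 4 tested macrophage markers were higher, and the 5 on the array summed to 10294 to 14081 in Cy/+ and 5290 to 6150 in +/+ kidneys. Of 4 tested fibroblast markers 3 were higher, and the 5 on the array summed to 8282 to 14537 in Cy/+ and 1572 to 1999 in +/+ kidneys. All 3 tested lymphocyte markers were higher, with a sum over 5 of 998 to 1755 in Cy/+ and 449 to 525 in +/+ kidneys, but 2 of the 3, Cd3e and Cd3g, were tested only because of their Cy/+ signal. Of 5 proliferation genes 3 were higher, with sums of 2624 to 2936 in Cy/+ and 2260 to 2367 in +/+ kidneys, and all 3 (Mki67, Top2a and Cdk1) were tested only because of their Cy/+ signal. Both podocyte markers and 2 of 4 endothelial ones were lower, and of 4 thick limb markers 1 was higher and 1 lower. None of 5 collecting duct markers passed, and their sum ran from 7350 to 20004 in Cy/+ and from 9128 to 10272 in +/+ kidneys. Among the Cy/+ arrays, replicate 1 was the lowest in all 5 collecting duct markers and the highest in all 5 macrophage and all 5 fibroblast markers. For 2 housekeeping genes, the 3' control probe set divided by the 5' one, a value that rises as RNA or its labeling loses 5' ends, was 3.22 ± 0.265 in Cy/+ and 1.51 ± 0.00568 in +/+ kidneys for beta-actin, and 1.85 ± 0.103 in Cy/+ and 1.18 ± 0.036 in +/+ kidneys for Gapdh (SD, n = 3 each). The 18 hybridization control probe sets, which read no rat RNA, were each brighter on all 3 Cy/+ arrays than on any +/+ array, by a median of 1.83-fold. The same was true of all 24 poly-A control probe sets, by a median of 3.82-fold. The part of these differences in the signals of splicing factor genes was not tested.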

How the data were processed

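Kidney RNA of male rats, as 3 Cy/+ and 3 +/+ samples, was hybridised to rat genome oligonucleotide arrays, 1 per sample. The authors hybridised biotin-labeled cRNA and read the images with GCOS, and the processing notes name MAS5. The deposited values are linear signal intensities, 1 per probe set, from 10.65 to 32240; their scaling is not given in the sources used here. No further scaling was applied before taking log2. Of 31099 probe sets, 57 controls were left out, and the 18625 whose mean log2 signal reached the 40th percentile (6.28) were tested. Symbols came from the platform annotation: 20832 probe sets had 1 symbol, 436 several and 9831 none. The test between genotypes was that of limma 3.58.1 under R 4.3.3 (lmFit and eBayes, trend over intensity), with Benjamini-Hochberg adjustment over all tested probe sets and a threshold of 0.05. The number of arrays limits the precision. The fit was tested on simulated arrays with independent noise, few changed probe sets and no array-wide shift between genotypes. These data differ in that most genes were called and controls differed by genotype, so that test does not speak for such conditions. Protein sequences were not used here.

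The members and gene lists were chosen with earlier results of these data known. Named genes are members past the threshold with a log2 change of at least 1, the extremes of each class, all SR protein and U2AF genes, members with opposite probe sets, and other splicing regulators past the same limits. Others were chosen after their values were seen. Alternatives were quantile normalization, median centring, a pseudocount of 16, no filter or one at the 60th percentile, no trend, array weights, the methods' t-test, a block for replicate number, probe sets averaged per gene, no probe sets for several transcripts, and leaving out each array. Choosing the brightest probe set over +/+ arrays and adding joint entries were added after the data were seen.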

Additional observations from a re-analysis of the deposited data

How the results depend on the processing

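The count of higher members was 31 and lay between 29 and 33 under all alternatives other than leaving out an array, where it was 28 to 34. The count of lower members, 5, was less firm. It was 8 after median centring of arrays, 9 with averaged probe sets and 3 with the methods' t-test, and 3 to 8 when each array was left out, with 3 without +/+ replicate 1 or 2 or without Cy/+ replicate 2 or 3. In those 4 fits, Snrpd3 and Srsf7-ps4 lost their calls. Without adjustment, the methods' t-test gave 33 higher and 7 lower members, and after Benjamini-Hochberg adjustment 30 and 3. Choosing the brightest probe set over the +/+ arrays, an alternative chosen after seeing the data, gave 30 higher and 5 lower members, with Srsf11 at 0.34 and not called (limma adjusted p = 0.0508). Of the spliceosome particle genes, 3 were lower, and 5 with array quality weights, 6 with median centring, 6 with averaged probe sets and 2 to 5 when an array was left out. Of the SR protein genes 1 was lower, and 0 with the filter at the 60th percentile, which left the gene untested, 0 with the methods' t-test, 2 without a filter and 0 to 1 when an array was left out. Of the hnRNP genes 1 was lower, and 2 with averaged probe sets and 1 to 2 when an array was left out. The median log2 fold change of the members, 0.34, was 0.27 with median centring, 0.29 with averaged probe sets and 0.30 to 0.37 when an array was left out.

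The replicate number as a block gave 30 higher and 4 lower members, and Hnrnpl (limma adjusted p = 0.0797) and Snrpd3 (limma adjusted p = 0.0608) were no longer called. Samples of the same number did not deviate together (correlations of 0.147, -0.11 and -0.151), so the numbers were not taken as pairs.

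Among the members named by the stated rules, the direction turned for 4 genes that were not called and for Prpf3. Outside these, Hnrnpa2b1 turned from 0.044 to -0.25 with averaged probe sets and passed as lower (limma adjusted p = 0.0305). Prpf18 was at -0.021 with array quality weights, at -0.018 with median centring and between -0.00091 and 0.13 when an array was left out. Srsf10 was at -0.15, -0.051, -0.37 and -0.089 with array quality weights, median centring, averaged probe sets and quantile normalization, and between -0.33 and 0.28 when an array was left out. U2af2 was at -0.006, -0.051 and -0.51 with array quality weights, median centring and averaged probe sets, of which the last passed as lower (limma adjusted p = 0.0016), and between -0.028 and 0.053 when an array was left out. The average of U2af2 includes a probe set with a Cy/+ mean signal of 52.4, below that needed for testing. Srsf1 was at 0.13 with quantile normalization and between -0.045 and 0.024 when an array was left out. Prpf3, higher at 0.32, was at -0.30 and lower with averaged probe sets (limma adjusted p = 0.0262), which joins its brightest probe set with a dimmer one of opposite direction. The dimmer one had a Cy/+ mean signal of 57.6, below that needed for testing. The cause of the other changes was not tested.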
